A study of Mus musculus with 8 samples.

Results

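A group of 10 receptors through which leukocytes sense nucleotides, adenosine, fatty acids, ketone bodies, sterols, tryptophan products and acid was followed in the mouse aorta: 5 purine receptors (*P2ry6*, *P2ry12*, *P2ry13*, *P2rx7* and *Adora3*) and 5 receptors for other metabolites (*Gpr35*, *Gpr65*, *Gpr183*, *Hcar2* and *Gpr84*). They are 10 of the 21859 genes counted, found by their symbols. These genes were chosen with the difference between ApoE-/- and WT aortas in these same libraries already known, so their own differences between genotypes are given as a description. No p-value is given for them, and where members past a threshold are counted, the count is no evidence. RNA came from whole aortas of 4 ApoE-/- and 4 WT male mice on the C57BL/6 background, all 40 weeks old and fed chow, with 1 stranded, ribodepleted library of total RNA per mouse. The knockout is a germline one, not limited to a cell type, and an aorta taken whole can carry adventitia and perivascular fat beside the wall itself.

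Cells that are stressed, activated or dying release ATP, ADP and UDP, and enzymes on cell surfaces break these down to adenosine. P2X receptors are ion channels that ATP opens, P2Y receptors are G protein-coupled receptors for nucleotides, and the adenosine receptors are G protein-coupled receptors for the last product of the chain. *P2rx7* is thus the only channel among the 10 and not a G protein-coupled receptor. The other members answer to small molecules of metabolism, and in atherosclerosis, where macrophages fill with lipid in an acidic and poorly oxygenated wall, several of their ligands are known to be present.

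The libraries gave 23240995 to 23940156 read pairs on genes in ApoE-/- mice and 18375898 to 21664598 in WT mice, out of 65355678 to 75627250 pairs in all. Pairs on genes made up 32.3% to 35.6% of all pairs in ApoE-/- mice and 27.9% to 30.2% in WT mice, without overlap, and the part of this in the results was not tested. Levels are given as CPM, counts scaled by library size (TMM), and a library with 3 counts of a gene, taken here as the floor, has 0.125 to 0.163 CPM before the TMM factor. *Apoe* itself was at 14.7 to 36.3 CPM in the ApoE-/- mice and at 536 to 857 CPM in the WT mice, as the labels say. Of the marker lists used below, the summed leukocyte markers (*Ptprc*, *Laptm5*, *Coro1a* and *Cd53*) were at 146 to 311 CPM in ApoE-/- and 48.8 to 73.8 CPM in WT aortas, and the summed cardiac muscle markers at 14 to 78.9 and 136 to 293 CPM, both without overlap.

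*Gpr35* was the receptor with the widest gap between the genotypes, followed by *Gpr65*, and these were the members whose 4 ApoE-/- values all lay above the 4 WT values. For this reason their promoters are shown, as the 250 bases before each annotated transcript start in RefSeq (build GRCm38.p6, 5′ to 3′ on the strand of the gene, the plus strand for both). In the RefSeq windows at hand *Gpr35* has a pair of starts and *Gpr65* a single start. Both *Gpr35* windows lie inside the gene as GENCODE annotates it, which begins at 92950865. The bases before that GENCODE start were not searched. Capitals mark matches to the AP-1 motif TGACTCA, read on either strand.
*Gpr35*, first start (chr1:92972869-92973118): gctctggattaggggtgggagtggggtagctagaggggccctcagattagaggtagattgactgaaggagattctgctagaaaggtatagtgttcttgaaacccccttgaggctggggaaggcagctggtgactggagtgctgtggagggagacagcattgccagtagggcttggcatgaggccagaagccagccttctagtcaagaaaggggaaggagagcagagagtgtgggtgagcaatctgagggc
*Gpr35*, second start (chr1:92978653-92978902): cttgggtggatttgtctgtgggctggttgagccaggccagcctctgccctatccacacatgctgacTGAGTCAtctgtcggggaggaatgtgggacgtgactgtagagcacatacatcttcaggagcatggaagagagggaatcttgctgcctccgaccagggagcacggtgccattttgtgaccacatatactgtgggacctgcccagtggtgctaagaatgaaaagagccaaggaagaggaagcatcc
*Gpr65* (chr12:98268385-98268634): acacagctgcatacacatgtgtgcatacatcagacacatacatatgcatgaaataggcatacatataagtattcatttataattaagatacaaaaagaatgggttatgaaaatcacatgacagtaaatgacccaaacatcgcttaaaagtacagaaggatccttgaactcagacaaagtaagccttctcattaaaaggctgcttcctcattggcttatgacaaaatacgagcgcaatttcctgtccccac

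RefSeq windows of 300 bases (250 before and 50 after the start) were at hand for 8 of the 10 members, without *Hcar2* and *P2ry6*, and gave 10 windows. AP-1, a factor induced by many inflammatory signals, was searched as TGACTCA, and PU.1, the factor that defines myeloid cells, as GAGGAAGT, both on either strand. No match of one motif lay on a match of the other in these windows. The AP-1 letters were in 3 of the 10 windows, those of *Gpr35* (second start, 184 bases before it), *Adora3* and *P2rx7*, and in 5.2% of the 32851 windows of all genes. The PU.1 letters were in 2 of the 10 windows, those of *Adora3* and *P2rx7*, and in 3.2% of all windows. Neither of the printed *Gpr35* windows and not the *Gpr65* window held the PU.1 letters, and a match or its lack describes these letters in this window only.

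*Gpr35* (ENSMUSG00000026271.15, chromosome 1, 92950865 to 92986391, plus strand, GRCm38) encodes a receptor for which kynurenic acid and lysophosphatidic acid have been proposed as ligands. ApoE-/- mice 1 to 4 had 4.55, 4.94, 5.97 and 9.25 CPM (112, 113, 137 and 213 counts), and WT mice 1 to 4 had 1.15, 1.26, 1.39 and 1.39 CPM (25, 27, 25 and 29 counts). The WT aortas lay close together, the ApoE-/- aortas spread over a wider range, and ApoE-/- mouse 4 was the highest. The means were 6.18 ± 2.13 and 1.30 ± 0.115 CPM (SD, n = 4 each), a fitted difference of 4.75-fold (edgeR log2 fold change 2.25, SE 0.27), and the log2 value stayed between 1.98 and 2.37 when any 1 mouse was left out. In RNA of a whole tissue, fewer or more cells of a type and less or more RNA of a gene per cell cannot be told apart, here and for every receptor below.

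*Gpr65* (ENSMUSG00000021886.7, chromosome 12, 98268635 to 98276644, plus strand) encodes a receptor that senses protons outside the cell and raises cAMP. It was at 2.40, 2.10, 3.62 and 5.69 CPM in ApoE-/- mice 1 to 4 and at 1.70, 1.59, 1.39 and 1.58 CPM in WT mice 1 to 4. The genotypes did not overlap, but ApoE-/- mouse 2 stood only a little above the highest WT mouse. The log2 fold change was 1.14 (SE 0.33) over all mice and 0.79 without ApoE-/- mouse 4. An antisense transcript, *Gm47566*, shares 511 exon bases with it on the other strand and was not analysed here.

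**Figure D1:**
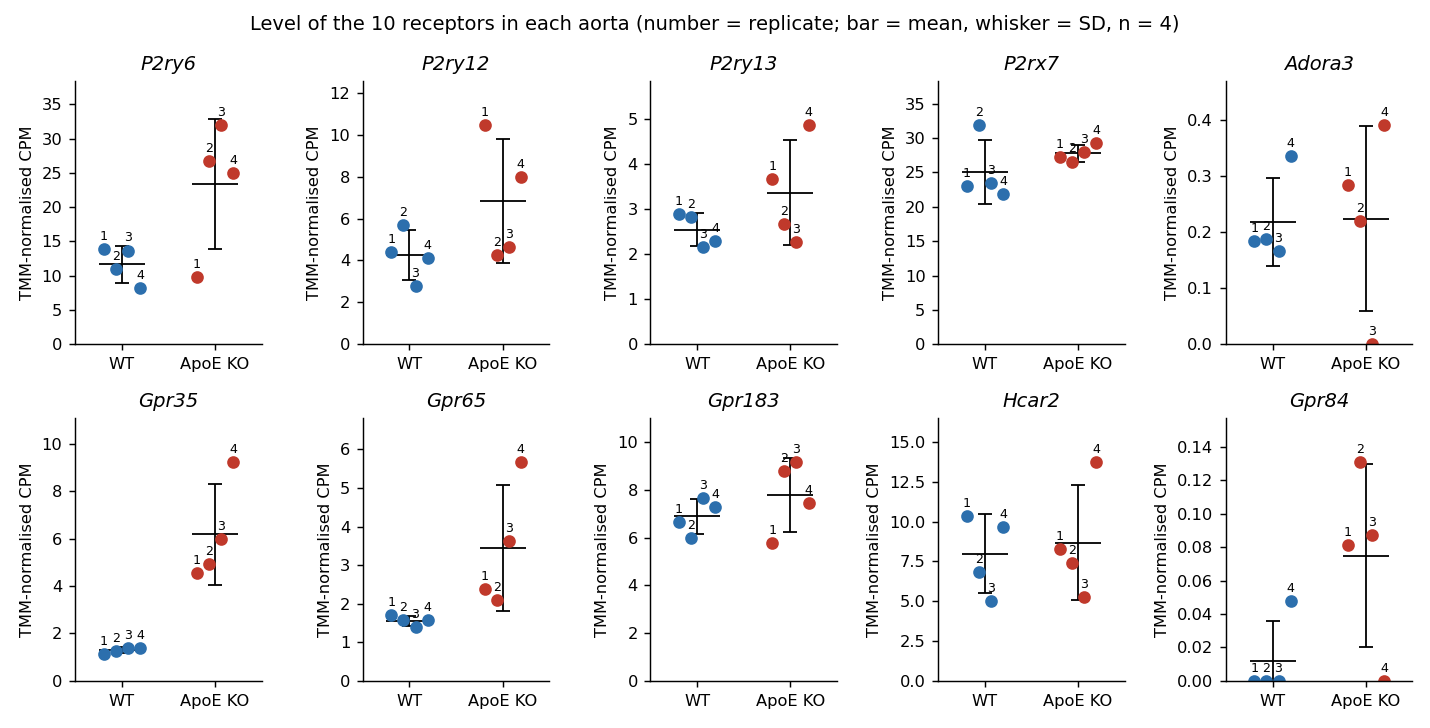
Level of each of the 10 receptors in each aorta, in TMM-normalised CPM on axes that start at 0, with WT mice in blue and ApoE-/- mice in red, the replicate number above each point, the mean as a bar and the SD as a whisker (n = 4). The genotypes are apart for *Gpr35* (1.15 to 1.39 against 4.55 to 9.25 CPM) and *Gpr65*, ApoE-/- mouse 1 lies among the WT mice for *P2ry6*, and the other receptors overlap.

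Among the purine receptors, *P2ry6*, a receptor for UDP found on macrophages and smooth muscle cells (ENSMUSG00000048779.5, chromosome 7, 100937630 to 100974649, minus strand, 81.2 Mb from *Apoe*), had the largest difference. ApoE-/- mice 1 to 4 had 9.78, 26.8, 32.0 and 25.0 CPM, and WT mice 1 to 4 had 13.9, 10.9, 13.7 and 8.14 CPM. ApoE-/- mice 2, 3 and 4 were above every WT mouse, whereas ApoE-/- mouse 1 was below 3 of the 4 WT mice. The log2 fold change was 1.00 (SE 0.35) over all mice and 1.26 without ApoE-/- mouse 1. The same mouse had the lowest summed smooth muscle markers of all 8 (4288 CPM, against 9786 to 18400 CPM in the other aortas), and the part of this in the *P2ry6* value was not tested.

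*P2ry12* (ENSMUSG00000036353.13) and *P2ry13* (ENSMUSG00000036362.2) encode ADP receptors. The former is the platelet receptor that clopidogrel blocks and also marks resident macrophages of the brain. They lie side by side on the minus strand of chromosome 3 (59216272 to 59262871 and 59207892 to 59210882), inside *Med12l*, which is read from the other strand, shares 9 exon bases with *P2ry12* and was at 27.9 ± 4.89 and 24.8 ± 4.82 CPM (ApoE-/- and WT, SD, n = 4). *P2ry12* was at 10.5, 4.24, 4.62 and 7.99 CPM in ApoE-/- mice 1 to 4 and at 4.41, 5.71, 2.77 and 4.12 CPM in WT mice 1 to 4. ApoE-/- mice 1 and 4 were above all WT mice and the other two were not, and the log2 fold change of 0.68 (SE 0.35) became 0.40 without ApoE-/- mouse 1. *P2ry13* was at 3.65, 2.67, 2.27 and 4.86 CPM and at 2.89, 2.81, 2.16 and 2.30 CPM (log2 fold change 0.40, SE 0.27, and 0.17 without ApoE-/- mouse 4). Here too ApoE-/- mice 1 and 4 were above all WT mice and mice 2 and 3 were within their range, so that the neighbouring genes had the same pair of mice on top. Platelet markers summed to 7.17 to 24.2 CPM in ApoE-/- and 9.81 to 14.7 CPM in WT aortas, with ApoE-/- mouse 4 the highest, and *Gp1bb*, 1 of the 5, was at or below the floor in every library. Their part in these values was not tested.

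*P2rx7*, the ATP-gated channel that opens the way to the NLRP3 inflammasome in macrophages (ENSMUSG00000029468.17, chromosome 5, 122643911 to 122691432, plus strand), had the highest mean CPM of the 10 in both genotypes. ApoE-/- mice 1 to 4 had 27.2, 26.6, 28.0 and 29.3 CPM, and WT mice 1 to 4 had 23.0, 31.9, 23.5 and 21.8 CPM. The ApoE-/- aortas were nearly equal, and WT mouse 2 was higher than all of them, while the other WT mice were below all of them. The log2 fold change was 0.15 (SE 0.13), and 0.285 without WT mouse 2. *P2rx7* made up 28.3% to 37.5% of the summed CPM of the 10 receptors in ApoE-/- and 35.8% to 47.5% in WT aortas. *Adora3*, an adenosine receptor of mast cells and other myeloid cells (ENSMUSG00000000562.5, chromosome 3, 105870858 to 105908926, plus strand), had 7, 5, 0 and 9 counts in ApoE-/- mice 1 to 4 and 4, 4, 3 and 7 counts in WT mice 1 to 4, too few for the low-count filter. It shares 779 exon bases, 20.9% of its own, with *Tmigd3* on the same strand, which had at most 6 counts in any library, so that the counts of *Adora3* are uncertain.

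Of the other metabolite receptors, *Gpr183* (ENSMUSG00000051212.8, chromosome 14, 121952551 to 121965195, minus strand), also called EBI2, guides B cells, T cells and dendritic cells along gradients of an oxysterol. It was at 5.76, 8.79, 9.19 and 7.47 CPM in ApoE-/- mice 1 to 4 and at 6.66, 5.99, 7.65 and 7.28 CPM in WT mice 1 to 4. The lowest of the 8 values and the highest were both from ApoE-/- mice, and the log2 fold change was 0.18 (SE 0.18). It was 0.30 without ApoE-/- mouse 1 and 0.09 without ApoE-/- mouse 3. The gene lies within *Ubac2*, which is read from the opposite strand, shares no exon base with it and was at 32.9 ± 3.96 and 27.8 ± 2.35 CPM. The summed dendritic cell markers were lower in ApoE-/- aortas (63.3 to 73.6 CPM) than in WT aortas (78.1 to 93.1 CPM), a sum made up mostly of *Zbtb46* (50.3 ± 6.44 and 67.1 ± 6.05 CPM). Of the 5 markers, 3 had log2 fold changes above 0 (*Flt3* 1.14, *Cd209a* 1.31 and *Xcr1* 0.37), and the median was 0.37. *Zbtb46* (-0.42) and *Clec9a* (-0.37) were lower in ApoE-/- aortas without overlap. Their part in the *Gpr183* values was not tested.

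*Hcar2*, the receptor for beta-hydroxybutyrate and niacin (ENSMUSG00000045502.6, chromosome 5, 123863570 to 123865499, minus strand), is known for its place on adipocytes, where it restrains lipolysis, as well as on neutrophils and macrophages. It was at 8.28, 7.39, 5.27 and 13.8 CPM in ApoE-/- mice 1 to 4 and at 10.4, 6.83, 5.04 and 9.67 CPM in WT mice 1 to 4. The genotypes covered nearly the same range and the log2 fold change was 0.12 (SE 0.34), with a change of sign to -0.19 without ApoE-/- mouse 4 and to -0.05 without WT mouse 3. *Gpr84*, a receptor for medium-chain fatty acids that inflammation induces in myeloid cells (ENSMUSG00000063234.5, chromosome 15, 103308235 to 103310612, minus strand), was at or below the floor in all 8 libraries, with 2, 3, 2 and 0 counts in ApoE-/- mice 1 to 4 and 1 count in WT mouse 4 alone among WT mice. No fold is given for it, since a difference was not detectable at this depth.

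Of the 10 members, 8 passed the low-count filter, with a median log2 fold change of 0.54, beside 0.05 over the 15077 genes tested. Only 1 member, *Gpr35*, was past an adjusted p of 0.05 in edgeR, where 0.371% of all genes tested were past it and higher in ApoE-/- aortas (0.464% in either direction). *Gpr35* was also the single member past that threshold in DESeq2, where 3.23% of genes were past it and higher. In edgeR no member was past it without ApoE-/- mouse 3 or 4 or any 1 of the WT mice. In all, 2 members had genotypes that did not overlap, beside 5.41% of all genes tested. Since the members were selected on this comparison, nothing is read from these counts.

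The members were ordered by level per kilobase of exon, which allows for gene length. In WT aortas *P2rx7* (4.20 ± 0.775 CPM per kb, SD, n = 4), *Hcar2* (4.13 ± 1.29) and *P2ry6* (4.03 ± 0.936) came first, and their ranges overlapped. *Gpr183* (2.39 ± 0.252) overlapped *Hcar2* above it and *P2ry12* (1.67 ± 0.474) below it, *P2ry12* overlapped *P2ry13* (1.00 ± 0.144), and *P2ry13* did not overlap *Gpr65* (0.756 ± 0.063). *Gpr35* was at 0.268 ± 0.0237 CPM per kb, below every one of these, and *Adora3* (0.0585 ± 0.0211) and *Gpr84* (0.00694 ± 0.0139) were last. In ApoE-/- aortas *P2ry6* had the highest mean (8.10 ± 3.31 CPM per kb), but its lowest mouse (3.39) was below every *P2rx7* value (4.45 to 4.91). There *Gpr65* (1.67 ± 0.788), *P2ry13* (1.33 ± 0.458) and *Gpr35* (1.28 ± 0.441) overlapped, so that *Gpr35*, well apart from them in WT aortas, lay in their range in ApoE-/- aortas.

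The ApoE-/- mice did not rank alike for the different receptors. Mouse 4 had the highest level of the 4 for 6 members (*Gpr35*, *Gpr65*, *Hcar2*, *P2ry13*, *P2rx7* and *Adora3*), mouse 3 for *Gpr183* and *P2ry6*, mouse 1 for *P2ry12*, and mouse 2 for *Gpr84*, with 3 counts. Mouse 1 had the lowest level for *Gpr35*, *Gpr183* and *P2ry6*. The summed CPM of all 10 receptors was 72.5, 83.8, 91.0 and 103.6 in ApoE-/- mice 1 to 4 and 56.7 to 67.2 in WT mice.

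The label of the group names leukocytes, and the leukocyte markers were therefore set beside the receptors. *Ptprc*, which encodes CD45 and is carried by all leukocytes, rose from 25.9 ± 3.15 CPM in WT to 73.1 ± 20.7 CPM in ApoE-/- aortas (SD, n = 4 each; log2 fold change 1.50, SE 0.20, edgeR adjusted p = 0.038, DESeq2 adjusted p = 1.09e-08; higher in 4 of 4 mice). The edgeR call of *Ptprc* was kept only without ApoE-/- mouse 1, and without any other mouse it was lost (edgeR adjusted p 0.05 to 0.156). The summed leukocyte markers did not overlap between the genotypes, whereas *Gpr183*, *Hcar2*, *P2ry6*, *P2ry12*, *P2ry13* and *P2rx7* did. The summed 9 macrophage markers were at 341, 590, 666 and 1098 CPM in ApoE-/- mice 1 to 4 and at 296 to 342 CPM in WT mice, and the sum of ApoE-/- mouse 1 was within the WT range. That sum is weighted by *Mertk* (64.8 CPM in ApoE-/- mouse 1, up to 167 CPM in WT mice). For the other 8 of the 9 markers, among them *Adgre1* (23.2 CPM, against at most 19.6 CPM in WT mice) and *Cd68* (12.7 and 9.09 CPM), ApoE-/- mouse 1 was above every WT mouse.

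**Figure D2:**
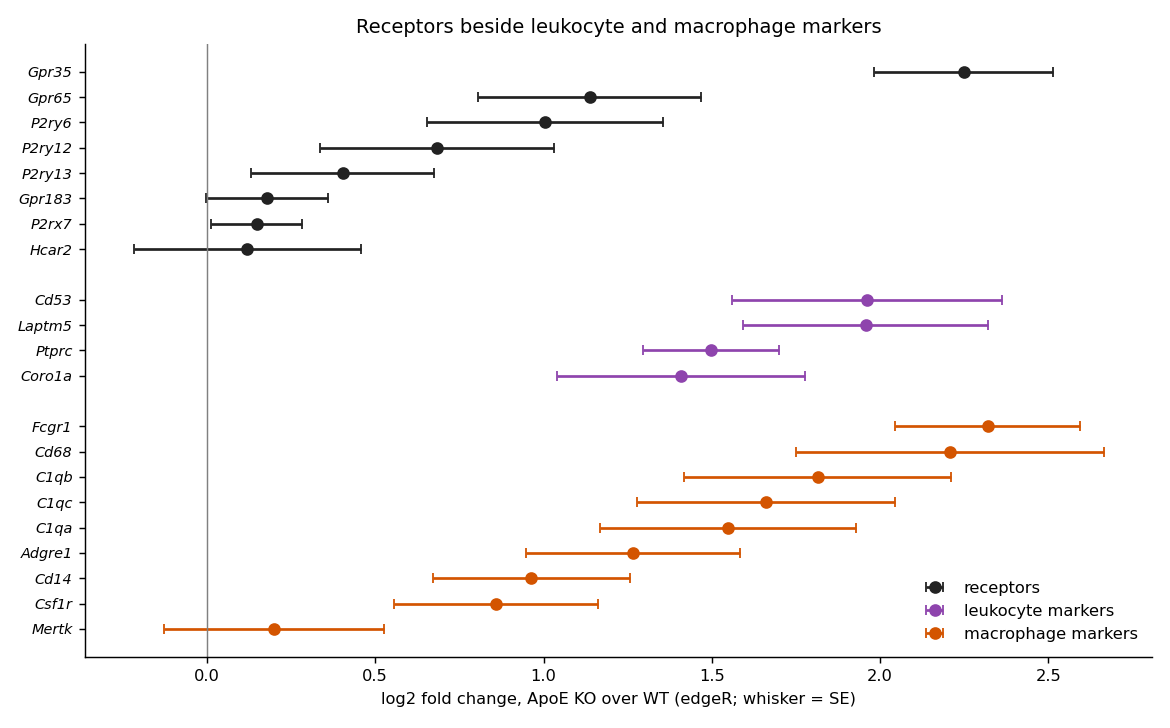
Log2 fold change of ApoE-/- over WT aortas (edgeR, 4 mice each; whiskers are SE) for the 8 receptors that passed the low-count filter, 4 leukocyte markers and 9 macrophage markers. *Gpr35* (2.25) lies among the highest of the markers, *Gpr65* (1.14) and *P2ry6* (1.00) lie below all 4 leukocyte markers (1.41 to 1.96), and *Hcar2* (0.12) lies near 0.

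Each receptor was then divided by the summed leukocyte markers of the same mouse. *Gpr35* was at 28.9 to 33.8 CPM per 1000 CPM of leukocyte markers in ApoE-/- aortas and at 15.5 to 28.4 in WT aortas, a 1.44-fold ratio of the means without overlap, although the highest WT mouse was close to the lowest ApoE-/- mouse. For *Gpr65* the order was turned, with 14.4 to 18.3 in ApoE-/- and 23.0 to 28.4 in WT aortas. *Gpr183* (ratio of means 0.368), *Hcar2* (0.349), *P2ry13* (0.423) and *P2rx7* (0.364) were likewise lower in every ApoE-/- than in every WT aorta on this scale, while *P2ry6* (0.636) and *P2ry12* (0.542) overlapped. By single markers, *Gpr35* was higher without overlap against *Ptprc* (1.64-fold) and overlapped against the other 3 (1.28-fold to 1.89-fold). *P2ry13* was lower against all 4, and *Gpr65*, *Gpr183*, *Hcar2* and *P2rx7* were lower against 3 of the 4 and overlapped against *Coro1a*. *P2ry12* was lower against *Coro1a* (0.622) and overlapped against the other 3, and *P2ry6* overlapped against all 4. Against the summed macrophage markers *Gpr35* was at 8.38 to 13.3 and 3.36 to 4.29 CPM per 1000 CPM (2.45-fold), *Gpr183* was lower without overlap (0.619), and the other 6 receptors of the filter overlapped, *P2ry6* with a ratio of 1.01. The *Gpr35* ratio depended on the marker: it was 4.66-fold higher against *Mertk* and 2.63-fold against *Csf1r*, without overlap, as against 4 of the 9 markers in all. It was 1.2-fold against *Cd68* and 0.92-fold against *Fcgr1*, with overlap, as against the other 5. These ratios share their denominator in each mouse and were not tested. The summed leukocyte markers were at 146 to 311 CPM in ApoE-/- and 48.8 to 73.8 CPM in WT aortas. A receptor with equal CPM in both genotypes is therefore lower on the leukocyte scale in ApoE-/- aortas. Whether receptor RNA per leukocyte differed was not tested.

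**Figure D3:**
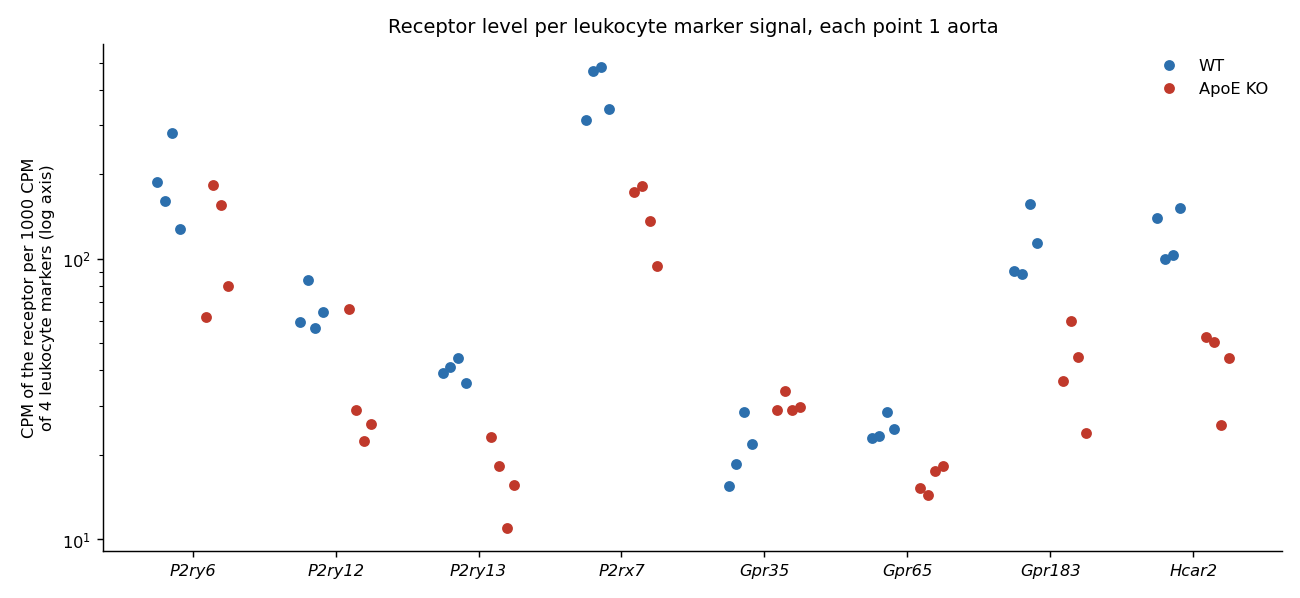
Level of 8 receptors per 1000 CPM of the summed leukocyte markers (*Ptprc*, *Laptm5*, *Coro1a* and *Cd53*) on a log axis, each point 1 aorta, WT in blue and ApoE-/- in red. *Gpr35* is higher in ApoE-/- aortas (28.9 to 33.8 against 15.5 to 28.4, by single markers for *Ptprc* only), *P2ry6* and *P2ry12* overlap, and the other 5 are lower in every ApoE-/- aorta. The summed leukocyte markers are themselves higher in every ApoE-/- aorta, so a receptor with equal CPM in both genotypes is lower here.

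Within the ApoE-/- group, some receptors followed the order of a cell type's markers. *Gpr35* and the macrophage markers had the same order (mice 4, 3, 2, 1, from high to low), *Gpr65* and *P2rx7* had that of the leukocyte markers (mice 4, 3, 1, 2), and *Hcar2*, *P2ry13* and *Adora3* had that of the adipocyte markers (mice 4, 1, 2, 3). The mast cell markers had that last order as well (70.1, 22.2, 21.04 and 9.63 CPM in mice 4, 1, 2 and 3). In the WT group, *Hcar2* had the order of the mast cell and platelet markers (mice 1, 4, 2, 3) and not that of the adipocyte markers (mice 4, 1, 3, 2), although mice 1 and 4 had the higher values of *Hcar2* (10.4 and 9.67 CPM) and of these lists. *Gpr65* and *P2ry13* had the order of the leukocyte and neutrophil markers in the WT group (mice 1, 2, 4, 3), whereas *P2rx7* (mice 2, 3, 1, 4) did not. *Gpr35* did not have the WT order of the macrophage markers, but had that of the endothelial and dendritic cell markers (mice 4, 3, 2, 1). *P2ry13* and *Adora3* did not have the WT order of the adipocyte markers. *Adora3* had that of the B cell markers (mice 4, 2, 1, 3), with 4 counts in each of WT mice 1 and 2. The adipocyte markers (*Adipoq*, *Plin1*, *Cidec*, *Lep* and *Cfd*) overlapped between the genotypes, at 1428 to 6690 CPM in ApoE-/- and 2590 to 5172 CPM in WT aortas. With 4 mice in a group such orders are a description.

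**Figure D4:**
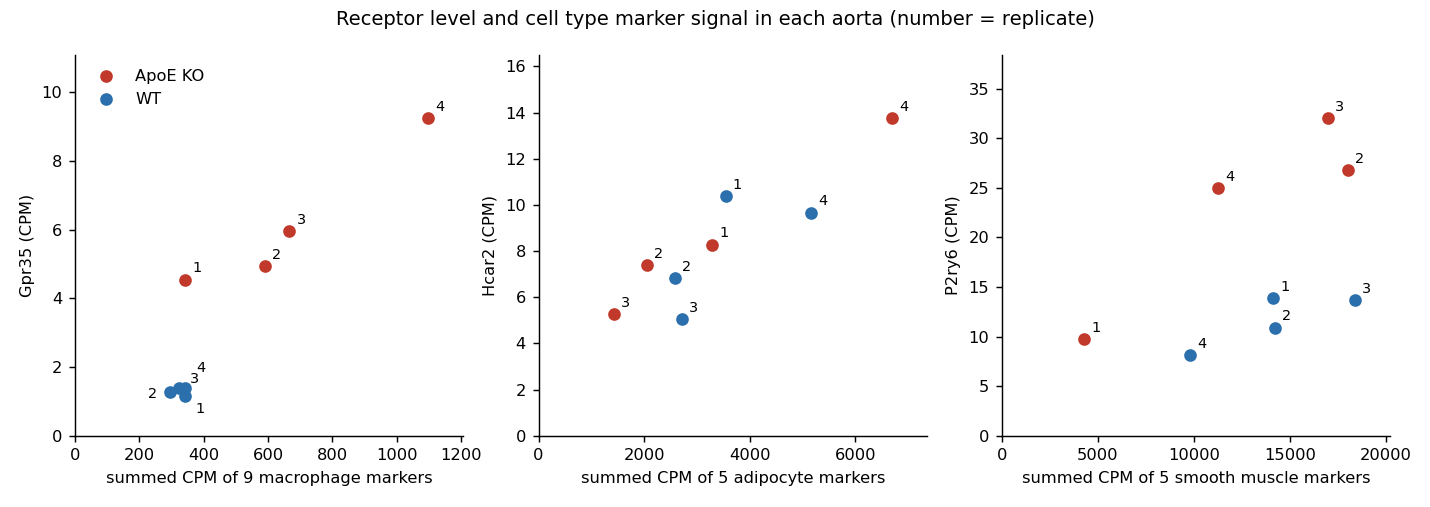
Level of *Gpr35*, *Hcar2* and *P2ry6* (CPM) against the summed CPM of macrophage, adipocyte and smooth muscle markers in each aorta, with ApoE-/- mice in red, WT mice in blue and the replicate number beside each point. ApoE-/- mouse 1 has summed macrophage markers at the WT level (341 CPM, a sum weighted by *Mertk*; 8 of the 9 markers were above every WT mouse) with *Gpr35* at 4.55 CPM, ApoE-/- mouse 4 is highest for both *Hcar2* and adipocyte markers, and ApoE-/- mouse 1 has the lowest smooth muscle markers (4288 CPM) and the lowest *P2ry6* of its genotype.

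Neutrophils, mast cells and lymphocytes can carry some of these receptors. The 6 neutrophil markers summed to 7.43 to 16.8 CPM in ApoE-/- and 2.27 to 3.26 CPM in WT aortas, without overlap, while *Ly6g*, the defining marker of mouse neutrophils, had at most 1 count in any library. The 6 mast cell markers summed to 9.63 to 70.1 and 12.5 to 31.1 CPM, with ApoE-/- mouse 4 the highest. B cell markers (5.08 to 12.5 and 2.88 to 5.17 CPM) and T cell markers (3.02 to 6.21 and 2.05 to 3.70 CPM) were low and overlapped, the B cell sums by 5.08 against 5.17 CPM. All 4 B cell markers (median log2 fold change 1.2) and all 4 tested T cell markers (median 0.69) had log2 fold changes above 0, and none of them passed in edgeR or DESeq2. The part of these cell types in the receptor values was not tested.

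The remaining genes of the same pathways were counted by lists of pathway members, which like the receptors were written with earlier results of these data known, with edgeR's quasi-likelihood test and Benjamini-Hochberg adjustment over all 15077 genes. Of the 13 other purine receptors, 12 were tested, with a median log2 fold change of 0.18, and none passed in edgeR. An unadjusted p under 0.05 was seen for 4, beside 11.4% of all genes tested. In DESeq2 2 passed, 1 higher and 1 lower, beside 725 of 14573 genes in either direction. *Adora2a*, the adenosine receptor that raises cAMP and dampens leukocyte activation, was at 10.3, 7.65, 7.62 and 6.86 CPM in ApoE-/- mice 1 to 4 and at 14.7, 12.5, 13.9 and 15.6 CPM in WT mice 1 to 4. The genotypes did not overlap, and the log2 fold change of -0.81 (SE 0.16) had an adjusted p of 0.066 in edgeR and 0.00015 in DESeq2. *P2rx4*, an ATP-gated channel of macrophages and endothelium, was at 61.9 ± 12.04 and 41.6 ± 3.95 CPM (ApoE-/- and WT, SD, n = 4; log2 fold change 0.58, SE 0.15, adjusted p = 0.145 in edgeR and 0.0312 in DESeq2), higher in 4 of 4 mice than in any WT mouse. Its DESeq2 call was lost without ApoE-/- mouse 3 or 4 or any 1 of the WT mice (DESeq2 adjusted p 0.103 to 0.173). The endothelial markers had 5 of 5 log2 fold changes below 0. *Cdh5*, *Kdr* and *Emcn* were lower without overlap, past the threshold in DESeq2 and not in edgeR, and the DESeq2 call of *Cdh5* was lost without WT mouse 4 (adjusted p = 0.0565). The sum of the 5 was 955 to 1376 CPM in ApoE-/- and 1310 to 1510 CPM in WT aortas, with overlap. Their part in the values of *Adora2a*, and of *Lpar6* below, was not tested.

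Of 19 other receptors for metabolites and lipids, 14 were tested (median log2 fold change 0.16), and 1 passed in edgeR, beside 0.464% of all genes tested. An unadjusted p under 0.05 was seen for 5, beside 11.4% of all genes tested. In DESeq2 2 passed, 1 higher and 1 lower, beside 725 of 14573 genes in either direction. The gene that rose was *P2ry10*, which despite its name is a receptor for lysophosphatidylserine on lymphocytes. It was at 2.76, 1.84, 2.53 and 2.34 CPM in ApoE-/- mice 1 to 4 and at 0.643, 0.843, 0.886 and 0.910 CPM in WT mice 1 to 4 (log2 fold change 1.52, SE 0.22, edgeR adjusted p = 0.0396, DESeq2 adjusted p = 7.20e-05). All 4 ApoE-/- mice were above all WT mice. The log2 value stayed between 1.42 and 1.63 without any 1 mouse, although the edgeR call was kept only without ApoE-/- mouse 1 (adjusted p 0.0198 to 0.169 over the 8 fits). The B and T cell markers given above had log2 fold changes above 0 beside it, and their part in its value was not tested. *Lpar6*, a lysophosphatidic acid receptor, was at 29.3 ± 3.29 and 44.9 ± 7.94 CPM (log2 fold change -0.62, SE 0.15) and passed in DESeq2 (adjusted p = 0.0063) and not in edgeR (adjusted p = 0.116). That call was lost without ApoE-/- mouse 3, WT mouse 1 or WT mouse 4 (DESeq2 adjusted p 0.0542 to 0.0728).

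The list of genes that release nucleotides, break them down, or carry and use up nucleosides such as adenosine held 15 genes, all tested. None passed in edgeR or DESeq2. Of the log2 fold changes, 14 of 15 were above 0 (93.3%, beside 58% of all genes tested), with a median of 0.30. There were 2 unadjusted p under 0.05, beside 11.4% of all genes tested. *Nt5e*, the ectonucleotidase CD73 that forms adenosine, was at 29.2 ± 8.69 and 17.3 ± 2.66 CPM (log2 fold change 0.76, SE 0.23, edgeR adjusted p = 0.21, and 0.0243 without ApoE-/- mouse 1). *Cd38*, an NAD-consuming ectoenzyme, was at 26.1 ± 6.95 and 18.6 ± 0.747 CPM (log2 fold change 0.49, SE 0.18, edgeR adjusted p = 0.322). Its log2 fold change was 0.295 without ApoE-/- mouse 4. The list of enzymes that make or remove ligands of *Gpr35*, *Gpr183* and *Hcar2* (14 genes, 12 tested, median log2 fold change -0.02) held no call in edgeR or DESeq2. Beside 11.4% of all genes tested, it held 2 unadjusted p under 0.05. These belonged to *Cyp27a1*, the sterol 27-hydroxylase, at 31.0 ± 6.25 and 44.1 ± 8.10 CPM (edgeR adjusted p = 0.304), and *Kmo*, which turns kynurenine away from kynurenic acid, at 3.60 ± 0.897 and 2.33 ± 0.401 CPM (edgeR adjusted p = 0.352). *Kynu*, the kynureninase of that list, did not pass the low-count filter and is named here after its values were seen: it had 8 to 20 counts in ApoE-/- and 0 to 3 counts, at or below the floor, in WT aortas.

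Downstream of *P2rx7*, the 8 genes of the inflammasome list were tested with a median log2 fold change of 0.35, and none passed in edgeR. An unadjusted p under 0.05 was seen for 3, beside 11.4% of all genes tested. In DESeq2 2 rose, beside 3.23% of all genes. *Nlrp3*, the sensor of the inflammasome, was at 1.50, 2.14, 3.09 and 3.43 CPM in ApoE-/- mice 1 to 4 and at 0.597, 0.702, 0.499 and 1.01 CPM in WT mice 1 to 4 (log2 fold change 1.85, SE 0.34, adjusted p = 0.0634 in edgeR and 0.000756 in DESeq2). *Il1b*, the cytokine it releases, was at 2.52 ± 0.624 and 0.741 ± 0.354 CPM (log2 fold change 1.75, SE 0.36, adjusted p = 0.0753 in edgeR and 0.00114 in DESeq2). Neither gene overlapped between the genotypes. Both log2 fold changes lay within the range of the 4 leukocyte markers (1.41 to 1.96), and the part of leukocyte content in these values was not tested.

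Of the 17 G protein subunits and regulators, all were tested (median log2 fold change 0.22), with no call in edgeR. An unadjusted p under 0.05 was seen for 5, beside 11.4% of all genes tested. In DESeq2 2 rose, beside 3.23% of all genes. *Plcb2*, the phospholipase C that Gi- and Gq-coupled receptors use in leukocytes, was at 5.97, 4.50, 6.40 and 8.16 CPM in ApoE-/- mice 1 to 4 and at 2.80, 2.39, 1.61 and 1.77 CPM in WT mice 1 to 4 (log2 fold change 1.54, SE 0.26, adjusted p = 0.0526 in edgeR and 1.62e-05 in DESeq2). *Arrb2*, a beta-arrestin that ends receptor signalling, was at 25.4 ± 4.57 and 16.1 ± 2.41 CPM (log2 fold change 0.66, SE 0.17, adjusted p = 0.127 in edgeR and 0.0168 in DESeq2). Both were higher in all ApoE-/- than in all WT mice, but the DESeq2 call of *Arrb2* was lost without ApoE-/- mouse 3 or 4 or WT mouse 3 or 4 (DESeq2 adjusted p 0.0694 to 0.123). The part of leukocyte content in the values of *Plcb2* and *Arrb2* was not tested.

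**Figure D5:**
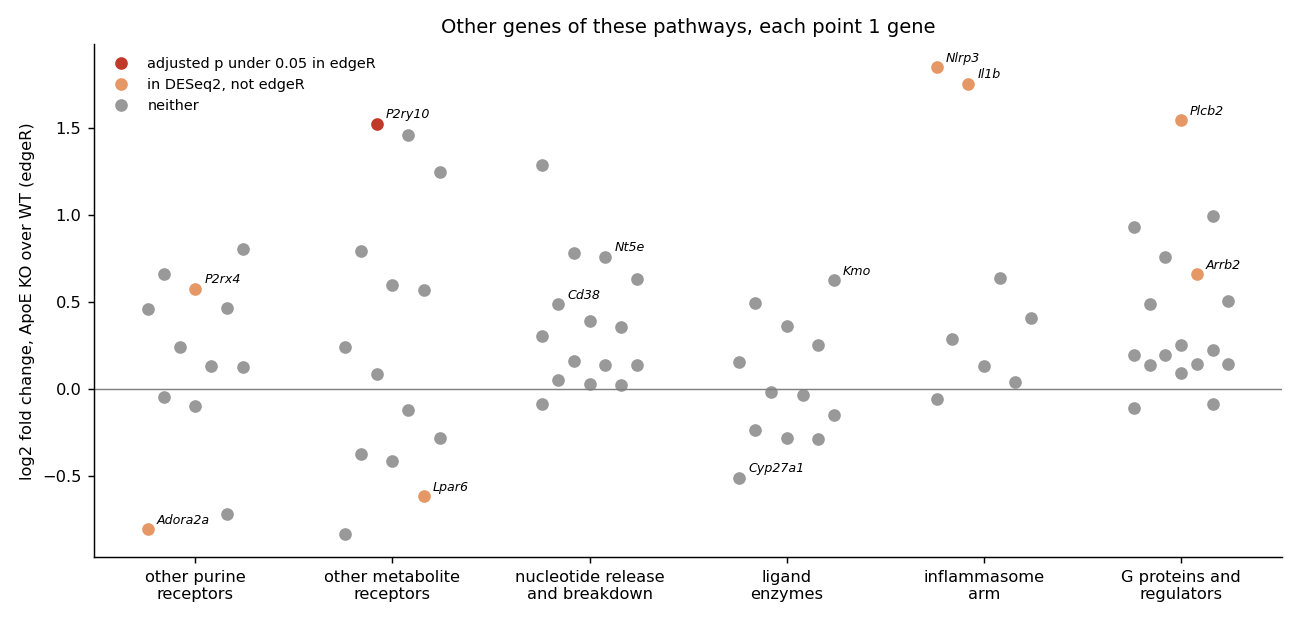
Log2 fold change (edgeR) of every tested gene of the 6 pathway lists, each point 1 gene, in red where the edgeR adjusted p was under 0.05, in orange where only DESeq2 was past that threshold and in grey otherwise; points are spread sideways for sight only, and the genes named in the text are labelled. *P2ry10* (1.52) is the only red point, *Nlrp3* (1.85) and *Il1b* (1.75) are the highest points of all, and *Adora2a* (-0.81) is the lower of the orange points below 0.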

How the data were processed

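The values used were raw, unnormalized counts, which the authors deposited as the number of pairs assigned to each gene in each mouse. The submitters' processing notes name TopHat2, HTSeq and the builds GRCm38 and mm10, with versions not given in the sources used here. Totals that name no gene (64.4% to 72.1% of pairs) were left out. The 10 members and all lists were chosen with earlier results of these data known. Counts were analysed with edgeR 4.0.16 in R 4.3.3: filterByExpr kept 15077 of 21859 genes, TMM factors scaled the libraries, and the quasi-likelihood F test (robust) compared the genotypes, two-sided, with Benjamini-Hochberg adjustment over these genes and a threshold of 0.05. Dividing a log2 fold change by the root of its F statistic gave its SE. CPM were counts over the TMM-scaled library size. The scripts were tested on simulated counts.

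The genes named were the members and, in each pathway list, those past the threshold (at most 4) and in any case the 2 of smallest p. Positions, exon lengths and overlaps came from GENCODE M21 (GRCm38), in which all 10 member identifiers were found with the same version, as were 21191 of all 21859. Promoters came from RefSeq and were searched with Python 3.11.15. The study's methods name DESeq2, which was run (1.42.0) as an alternative. The others were DESeq2's size factors in edgeR, a fit of all genes with any count, a fit without the robust option, a block for the replicate number, and fits without each of the 8 mice, also with DESeq2 (added after seeing the data). Nothing says whether the mice of a genotype shared a cage or litter, so p-values measure the spread between these mice, and the precision of a low value is limited by its counts.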

Additional observations from a re-analysis of the deposited data

Results flagged for a closer look

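In a group of 4 mice, a value was singled out where its gap to the nearest other mouse, divided by the range of the group, was above Dixon's critical value of 0.829. This was so in 3 of 68 groups of values examined, where chance gives about 3.4 (1 in 20). For *P2rx7* it was WT mouse 2, at 31.9 CPM against 21.8 to 23.5 CPM in the other WT mice, with a ratio of 0.835. For *Adora3* it was WT mouse 4, with 7 counts against 3 to 4 in the other WT mice and a ratio of 0.875. For *Gpr84* it was WT mouse 4, with 1 count against 0 in the other WT mice and a ratio of 1. No ApoE-/- mouse was singled out for any of the 10 receptors.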

How the results depend on the processing

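The 8 log2 fold changes of members kept their sign under every alternative, except that of *Hcar2*, which was -0.193 and -0.211 without ApoE-/- mouse 4 and -0.0469 and -0.0564 without WT mouse 3 (edgeR and DESeq2; range without 1 mouse -0.211 to 0.297). In all, 70 genes passed in edgeR, 74 with DESeq2's size factors, 63 without the low-count filter and 73 without robust estimation. DESeq2 passed 725 of 14573 genes, 470 higher and 255 lower in ApoE-/- aortas. Leaving out 1 mouse gave 0 to 1562 genes; edgeR gave 593 without ApoE-/- mouse 1, 17 or fewer without any other, and DESeq2 1562, 711, 530 and 706 without ApoE-/- mice 1 to 4 and 472, 503, 453 and 445 without WT mice 1 to 4. The count of members past the threshold was 0 to 3 without 1 mouse. DESeq2 passed 2 other purine receptors, 2 other metabolite receptors, 2 inflammasome genes and 2 G protein genes, where edgeR passed 0, 1, 0 and 0. In each of the receptor lists 1 DESeq2 call was higher and 1 lower, and the inflammasome and G protein calls were all higher. Without 1 mouse the counts were 0 to 3 other purine receptors, 0 to 2 other metabolite receptors, 0 to 2 nucleotide genes, 0 to 1 ligand enzymes, 0 to 2 inflammasome genes and 0 to 4 G protein genes, and in edgeR a count above that with all mice was seen only without ApoE-/- mouse 1. Why DESeq2 and these mice change the counts was not tested.

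With the replicate block, 2 genes passed, with 0 members and 0 other metabolite receptors, and *Ptprc* did not pass (edgeR adjusted p = 0.115). The labels do not say whether mice of the same number belong together. Deviations of same-numbered mice correlated at 0.0593, -0.448, 0.316 and 0.162, and 1 of 8 libraries was matched best by its own number. With so few mice these values cannot decide whether same-numbered mice shared a batch. Levels near 3 counts, those of *Gpr84* and *Adora3*, are limited by depth.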
